A study of Rattus norvegicus with 12 samples.

Results

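Interferon-stimulated genes are the genes that cells switch on when interferon binds its receptors, and 39 of them were followed here in cells of the bronchoalveolar lavage fluid (BALF) of rats. The list was drawn up by gene name, with earlier results of these arrays known, and a gene was measured by the brightest of the probe sets that carry its name and no other. In this way 36 of the 39 were measured, among 12853 genes in all. Gbp5, Ifi47 and Xaf1 had no probe set of their own in the annotation used, and Ddx58 was found under its array name Rig1.

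The animals were male Sprague-Dawley rats of 8 weeks. The CTL group received saline and stayed in normoxia, and the LPS group received 0.5 mg/kg lipopolysaccharide (LPS) into the tail vein. The HPO group was kept for 6 h in a hypobaric chamber at the pressure of 5000 m (405.35 mmHg, 11.2% oxygen), and the COMB group was given LPS and then the chamber. All groups were kept without food and water, cells were lavaged from the right lung, and the sorting of cell types is not part of the design, so each array measured a mixture. Each group has 3 arrays, and each array holds RNA pooled from several rats. The pools are those of rats 1, 3 and 4, rats 5, 6 and 7, and rats 8, 9 and 10 in CTL; rats 2, 3 and 6, rats 5, 7 and 11, and rats 8, 9 and 10 in LPS; rats 7, 8 and 9, rats 2, 4 and 11, and rats 3, 5 and 12 in HPO; and rats 2 and 3, rats 10 and 11, and rats 12, 13 and 14 in COMB. They are numbered 1 to 3 within a group and their values are given below in this order, so that CTL pool 2, the middle CTL value, is that of rats 5, 6 and 7. The pools are the replicates, and the p-values measure the spread between pools.

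LPS, a component of the bacterial wall, is sensed by Tlr4, and the TRIF branch of its signalling leads to interferon beta. Interferons alpha and beta bind Ifnar1 and Ifnar2 and activate a complex that holds STAT2 and IRF9 and binds the interferon-stimulated response element, while interferon gamma acts at the gamma-activated site. The proteins made in response sense foreign RNA and DNA, cut or block viral RNA, tag proteins with ISG15, hold viruses at membranes, or amplify the signal itself. In the lung, alveolar macrophages and epithelial cells both respond to interferon.

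The response element was read in the promoters of the measured genes, from 250 bases before to 50 bases after the start in RefSeq on the GRCr8 assembly. A promoter was listed for 27 of the 36. The letters GAAANNGAAA, on either strand (TTTCNNTTTC), stood in 16 of the 27 (59.3%), against 3.77% of all 27457 promoters of this length. The gamma-activated site was searched as TTCNNNGAA, which is its own reverse complement, and stood in 9 of the 27 (33.3%), against 8.68% of all promoters. Both patterns were found in 6 of the 27. In the 16 promoters there were 20 matches of the response element, 17 of them starting within 150 bases before the start. The 150 bases before the start of 4 genes are shown, since these genes span the patterns described below: Oas1a was called in both LPS and COMB and did not pass between them, Isg20 and Ifitm3 were higher in COMB than in LPS, and Bst2 was lower. Capitals mark the matches to the response element, and each sequence runs 5′ to 3′ in the direction of its gene.
Oas1a, chr12:41330316-41330465, plus strand: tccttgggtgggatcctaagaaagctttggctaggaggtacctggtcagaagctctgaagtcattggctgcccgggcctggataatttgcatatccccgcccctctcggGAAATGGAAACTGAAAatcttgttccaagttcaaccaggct
Isg20, chr1:142239909-142240058, plus strand: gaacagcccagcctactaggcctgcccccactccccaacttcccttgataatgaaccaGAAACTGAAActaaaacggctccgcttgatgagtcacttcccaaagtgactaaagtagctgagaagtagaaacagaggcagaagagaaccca
Ifitm3, chr1:205541759-205541908, minus strand: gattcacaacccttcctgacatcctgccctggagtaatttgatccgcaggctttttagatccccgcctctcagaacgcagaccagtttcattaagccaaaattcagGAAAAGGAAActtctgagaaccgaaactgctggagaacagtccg
Bst2, chr16:18254968-18255117, minus strand: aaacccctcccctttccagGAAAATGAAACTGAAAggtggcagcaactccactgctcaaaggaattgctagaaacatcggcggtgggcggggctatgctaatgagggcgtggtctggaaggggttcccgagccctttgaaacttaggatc
Oas1a and Bst2 carry 2 overlapping matches each, starting at -41 and -35 from the start of Oas1a and at -131 and -125 from that of Bst2. Isg20 and Ifitm3 carry 1 match each, at -92 and -44. Bst2, the one gene of the 4 that was lower, thus holds the same letters as the others. A match describes these letters only and does not show a site in use. The 16 genes with a match had a median log2 difference of 1.13 between COMB and CTL, and the 11 without had one of 1.00.

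One CTL pool stood apart before any comparison was made. CTL pool 2, of rats 5, 6 and 7, was the highest of the CTL pools for 32 of the 36 interferon-stimulated genes (88.9%), against 27.4% of all genes tested. It lay at least 2-fold above both other CTL pools for 16 of them (44.4%), against 1.27% of all genes tested. Rsad2, the antiviral enzyme viperin, had an intensity of 55.1 and 131 in the other CTL pools and of 3435 in this one. For Ifit3, an RNA-binding antiviral protein, the pool was 49.0 times the mean of CTL pools 1 and 3, for the ubiquitin-like Isg15 it was 19.7 times, for Ifit2 8.62 times, for Irf7 8.13 times and for Oasl 7.53 times. It was above the highest LPS pool for 9 of the 36 genes, a count for which the share of all genes was not computed. The same pool had the highest CTL value for 13 of 13 markers of T and NK cells, with a median log2 difference of 1.77 from the other CTL pools. This median was 1.29 for 7 markers of recruited monocytes, 1.05 for 7 of neutrophils, 0.38 for 14 of airway epithelium and -0.08 for 10 of alveolar macrophages. The part of these cells in the level of the interferon-stimulated genes was not tested. This pool widens the spread of CTL for these genes. Counts of called genes among the 36 that change without it are therefore given both ways. Changed calls are given with values for some single genes only, and the genes called higher against CTL without it are named by pattern below. The pool stood out through these same genes, so leaving it out lowers the CTL level of most of them. Calls added in this way are no separate support.

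**Figure D1:**
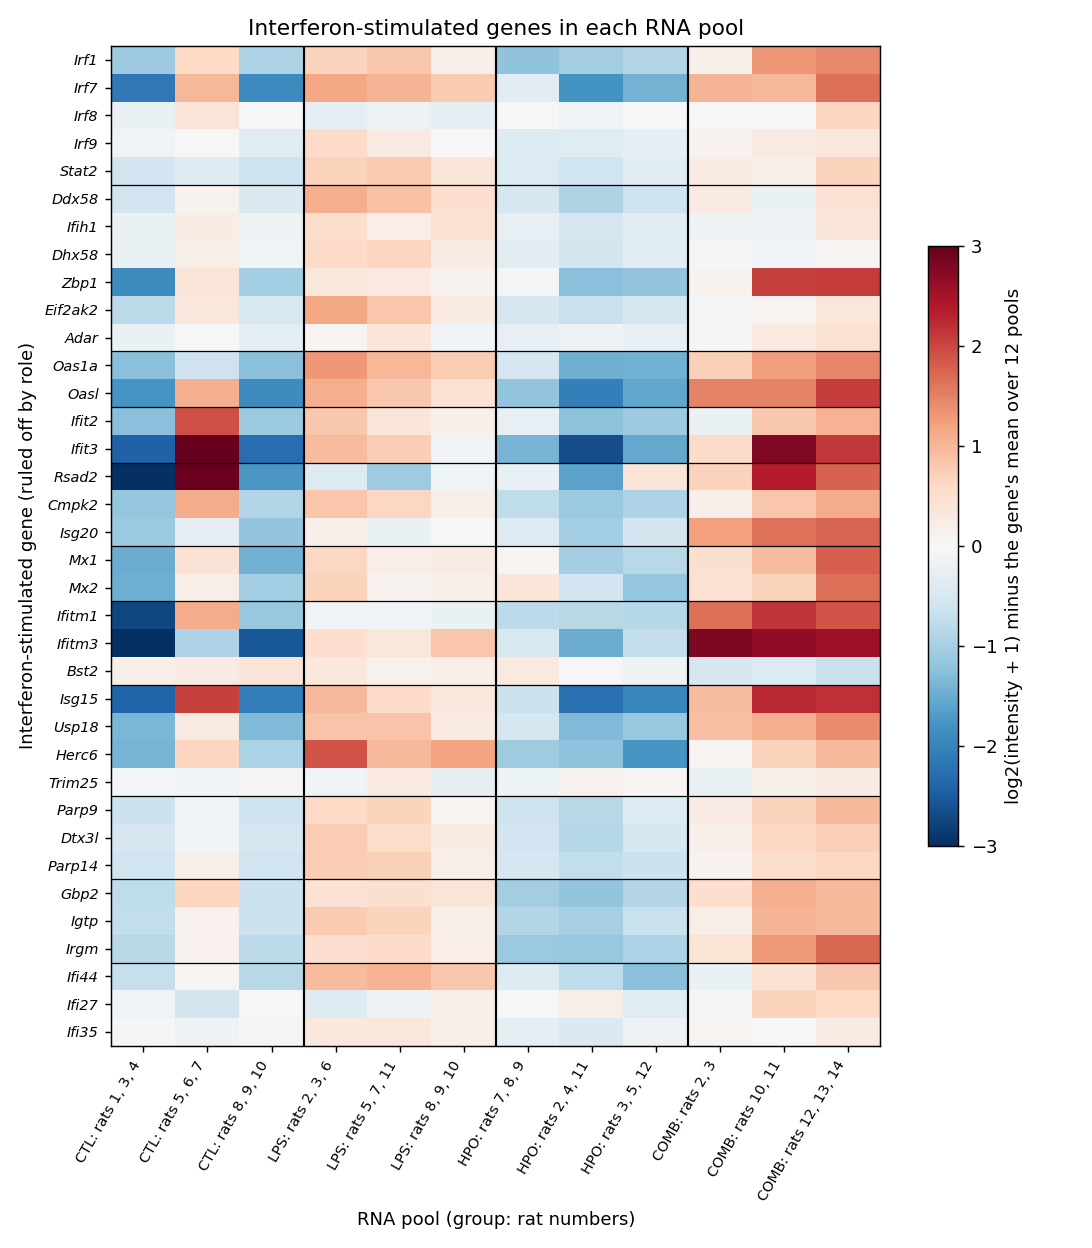
Log2(intensity + 1) of the 36 measured interferon-stimulated genes (rows, ruled off by role) in the 12 RNA pools (columns, named by group and rat numbers), each as the difference from the gene's mean over all pools. CTL pool 2 (rats 5, 6 and 7) is red for most genes, as the LPS and COMB pools are, while the other CTL pools and the HPO pools are mostly blue. Bst2 is the row that is blue in COMB.

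The marker levels of the cell mixture moved with the groups as well. The summed intensity of 10 alveolar macrophage markers was 26116 to 28330 in CTL, 27633 to 29811 in LPS, 26781 to 27669 in HPO and 23102 to 25427 in COMB, so each COMB pool was below every other pool. The summed intensity of 14 airway epithelium markers was 5831 to 9262 in CTL, 13092 to 14221 in LPS, 13612 to 15577 in HPO and 17911 to 24465 in COMB. For 13 markers of T and NK cells the sums were 699 to 3456 in CTL, 722 to 1130 in LPS, 964 to 1297 in HPO and 1416 to 8414 in COMB. For 7 neutrophil markers they were 474 to 2988, 1219 to 1959, 276 to 448 and 2917 to 6800 in the same order, and for 7 markers of recruited monocytes 3311 to 4835, 3538 to 4301, 2923 to 3462 and 4973 to 6743. The sums hold only listed markers with a probe set of their own above the 20th percentile in at least 3 arrays. These were 10 of 14 for alveolar macrophages, 14 of 15 for airway epithelium and 13 of 14 for T and NK cells. For neutrophils they were 7 of 14 and for recruited monocytes 7 of 10. In a mixture, more cells of a type and more RNA per cell cannot be told apart, and the part of the cell mixture in the results below was not tested. Differences between groups are on the log2(intensity + 1) scale, and a gene is called higher or lower when limma's p, adjusted by the Benjamini-Hochberg method over all probe sets tested, was under 0.05.

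In COMB against CTL, 19 of the 36 interferon-stimulated genes were called higher and 1 lower, against 11% of all genes higher and 11% lower. Their median log2 difference was 1.10, and that of all genes was -0.03. Without CTL pool 2, 28 were higher and 1 lower (all genes, 9.87% and 9.82%), the 19 among them, and the median was 1.64. In LPS against CTL, 6 were called higher and none lower (all genes, 1.24% and 1.54%), with a median of 0.92. Without that CTL pool, 23 were higher and none lower (all genes, 1.17% and 1.19%), the 6 among them, with a median of 1.36. CTL pools 1 and 3 lay below every LPS pool for 32 of the 36 genes, and for 18 of these 32 CTL pool 2 reached or passed the lowest LPS pool. The shares of all genes for these counts were not computed. Leaving out CTL pool 1 or CTL pool 3 lowered the count in LPS to 3 and 2, and leaving out LPS pools 1, 2 and 3 in turn lowered it to 2, 3 and 3. In COMB against CTL the total fell to 11 without CTL pool 1, to 11 without CTL pool 3 and to 12 without COMB pool 3.

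In HPO against CTL, limma called none of the 36 genes in either direction, where it called 0.0311% of all genes higher and 0% lower. At an unadjusted p under 0.05, 3 genes differed, namely Ifitm3, higher by 1.45 (adjusted p = 0.334), Gbp2, lower with a log2 difference of -0.78 (adjusted p = 0.399), and Dhx58, at -0.35 (adjusted p = 0.401). The median was -0.22 over all pools and 0.04 without CTL pool 2, so the sign of the median depended on that pool. Without it, limma again called none (all genes, 0% and 0%), 6 had an unadjusted p under 0.05, and Ifitm3 had the lowest adjusted p (2.16, adjusted p = 0.104). With array weights, which count HPO pool 1 far more than HPO pool 3, 4 were called higher and 1 lower. The share of all genes called with these weights was not computed. With equal weights, hypoxia without LPS moved no gene of the list past the test, and the pools do not exclude a rise of Ifitm3, with a 95% interval of 0.37 to 2.52.

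In COMB against HPO, which differ by LPS under hypoxia, 25 genes were called higher and 1 lower (all genes, 9.18% and 9.36%), with a median of 1.49. This comparison holds no CTL pool, and CTL pool 2 enters it only through the shared estimate of the spread. Without that pool, 30 were higher and 1 lower (all genes, 9.18% and 8.68%). The total of 26 fell to 17 without HPO pool 2 and to 16 without COMB pool 3. In COMB against LPS, which differ by hypoxia under LPS, 2 genes were called higher, Isg20 and Ifitm3, and 2 lower, Bst2 and Dhx58 (all genes, 8.64% and 5.04%). The median was 0.18, and 11 genes had an unadjusted p under 0.05. Without CTL pool 2, which again acts on the spread alone, 5 were higher and 3 lower (all genes, 8.49% and 4.64%), with Oasl, Rsad2 and Ifitm1 added among the higher and Ddx58 among the lower. The total of 4 became 2 without LPS pool 1, 2 without LPS pool 2 and 7 without COMB pool 1. In the same comparison 12 of 14 airway epithelium markers and 8 of 13 markers of T and NK cells were higher. Of 10 alveolar macrophage markers, 1 was higher and 4 lower. Among the other lists, 1 of 7 neutrophil, 1 of 7 recruited monocyte and 2 of 10 alveolar epithelium markers were higher. So were 1 of 6 dendritic cell and 0 of 5 B cell markers. Of 8 markers of endothelium and fibroblasts, 1 was higher and 1 lower. The interaction, which asks whether hypoxia changed a gene by another amount under LPS than without it, was called for none (all genes, 0.156% higher and 0.0233% lower). At an unadjusted p under 0.05 it differed for 4 genes, Isg20 at 1.34 (adjusted p = 0.141), Irgm at 1.27 (adjusted p = 0.249), Gbp2 at 1.19 (adjusted p = 0.264) and Bst2 at -0.49 (adjusted p = 0.285). Without COMB pool 1, limma called the interaction of Isg20 (1.49, adjusted p = 0.049) and of Irgm (1.63, adjusted p = 0.0331).

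**Figure D2:**
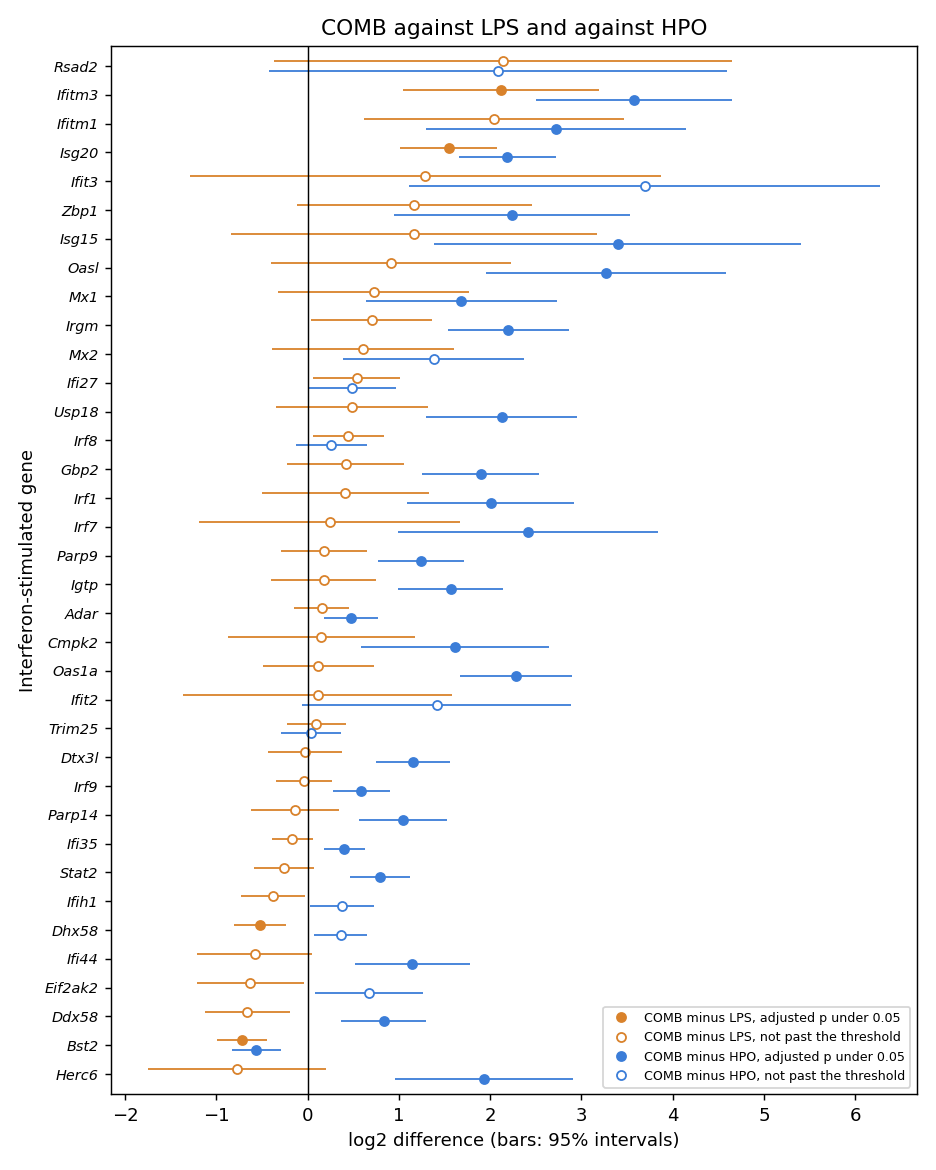
Log2 difference of each of the 36 genes between COMB and LPS (orange) and between COMB and HPO (blue), with 95% intervals from limma, ordered by the first. Filled points have an adjusted p under 0.05. Isg20 and Ifitm3 lie to the right of 0 in both comparisons, Bst2 lies to the left in both, and Dhx58 is lower than in LPS alone.

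The genes that passed in LPS without hypoxia and were no higher in COMB were Stat2, Oas1a, Dtx3l, Ddx58 and Ifi44. STAT2 is the subunit through which the interferon alpha and beta complex activates transcription. Stat2 had an intensity of 371, 428 and 362 in the CTL pools, 893, 957 and 721 in LPS, 417, 369 and 447 in HPO and 660, 615 and 884 in COMB. Every LPS and COMB pool was above every CTL and HPO pool, and the LPS and COMB pools overlapped. Stat2 was higher in LPS than in CTL by 1.14 (SE 0.151, adjusted p = 0.00462) and in COMB by 0.88 (SE 0.151, adjusted p = 0.00181), and COMB minus LPS was -0.26 with a 95% interval of -0.59 to 0.07. Its call in LPS was kept without each single pool, and a second probe set of the gene gave 1.03 in LPS (adjusted p = 0.00795) and 1.00 in COMB (adjusted p = 7.96e-04).

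OAS1 makes the short adenylate chains that activate RNase L when it meets double-stranded RNA. Oas1a was at 99.5, 154 and 99.4 in CTL, 589, 473 and 405 in LPS, 167, 84.6 and 87.0 in HPO and 388, 565 and 658 in COMB. The LPS and COMB pools did not overlap with those of CTL or HPO. It rose by 2.06 in LPS (SE 0.281, adjusted p = 0.00538) and by 2.18 in COMB (SE 0.281, adjusted p = 3.29e-04), both kept without any 1 pool. COMB minus LPS was 0.12 with a 95% interval of -0.49 to 0.73, which leaves room for up to a 0.73 log2 rise from hypoxia. Its close relatives share sequence with it, and which transcripts of the family the probe set takes up was not tested.

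DTX3L is a ubiquitin ligase that works as a pair with PARP9, an ADP-ribosyltransferase. Dtx3l was at 270, 365 and 271 in CTL, 660, 570 and 454 in LPS, 257, 213 and 269 in HPO and 427, 596 and 637 in COMB. The rise was 0.89 in LPS (adjusted p = 0.0356) and 0.87 in COMB (adjusted p = 0.00687), and COMB minus LPS was -0.02 (95% interval, -0.43 to 0.38). Its call in LPS was kept without CTL pool 2 and was lost without each of the other CTL and LPS pools (adjusted p up to 0.154). Parp9 was higher in COMB by 1.09 (adjusted p = 0.00437) and Parp14, a relative that acts on STAT signalling, by 0.76 (adjusted p = 0.0312), a call that Parp9 kept without any single pool and Parp14 lost without CTL pool 1, CTL pool 3, COMB pool 2 or COMB pool 3 (adjusted p up to 0.124). In LPS these stood at 0.91 (adjusted p = 0.0553) and 0.89 (adjusted p = 0.0628), and both passed without CTL pool 2, at 1.08 (adjusted p = 0.0409) and 1.15 (adjusted p = 0.0159). A second, dimmer probe set of Parp14 was not called in COMB (0.44, adjusted p = 0.293). Dtx3l, Parp9 and Parp14 were all higher in COMB than in HPO, by 1.05 to 1.24.

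All 6 sensors of foreign nucleic acid had log2 differences above 0 against CTL, with a median of 0.80 in LPS and 0.43 in COMB. Over all genes these medians were -0.02 and -0.03. In COMB against LPS the sensors were split, 2 above 0 and 4 below, and 1 was called, Dhx58. Ddx58 encodes RIG-I, which detects uncapped viral RNA in the cytosol. It was at 309, 496 and 340 in CTL, 980, 852 and 656 in LPS, 327, 248 and 300 in HPO and 549, 402 and 626 in COMB, so every LPS pool was above every COMB pool. Ddx58 rose by 1.13 in LPS (SE 0.214, adjusted p = 0.0238). In COMB it was at 0.47 (adjusted p = 0.156), and without CTL pool 2 it was called higher there, by 0.67 (adjusted p = 0.0493). COMB minus LPS was -0.66 (95% interval, -1.13 to -0.19, adjusted p = 0.0667, and 0.0445 without CTL pool 2). The call in LPS was lost without 4 of the 6 pools compared, namely CTL pools 1 and 3 and LPS pools 1 and 2.

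Dhx58 encodes LGP2, a relative of RIG-I that tunes RNA sensing, and its pools are given because of its call in COMB against LPS, a choice made after its values were seen. Its pools were at 188, 243 and 195 in CTL, 323, 337 and 251 in LPS, 173, 147 and 168 in HPO and 208, 201 and 219 in COMB, with every LPS pool above all others. Dhx58 was lower in COMB than in LPS, at -0.52 (SE 0.132, adjusted p = 0.0259), and was not called in LPS against CTL (0.53, adjusted p = 0.064, and 0.65 with adjusted p = 0.0424 without CTL pool 2). The lower value in COMB was not called without LPS pool 1, LPS pool 2 or COMB pool 2 (adjusted p up to 0.0998), and the 2 other probe sets of the gene were at -0.08 (adjusted p = 0.814) and -0.38 (adjusted p = 0.192). Ifih1, which encodes the long-RNA sensor MDA5, and Eif2ak2, the RNA-activated kinase PKR, were also numerically lower in COMB than in LPS, at -0.38 (adjusted p = 0.147) and -0.63 (adjusted p = 0.153), and neither passed. Eif2ak2 was not called against CTL in LPS (1.06, adjusted p = 0.0707) or COMB (0.44, adjusted p = 0.301). Without CTL pool 2 it was called higher in both, by 1.38 (adjusted p = 0.0153) and 0.76 (adjusted p = 0.0424).

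Zbp1, a sensor of Z-form nucleic acid that can start necroptosis, was numerically higher in COMB than in LPS. It was at 35.6, 174 and 64.8 in CTL, 168, 164 and 144 in LPS, 131, 55.7 and 57.7 in HPO and 143, 559 and 571 in COMB. Zbp1 was higher in COMB than in CTL by 2.26 (SE 0.593, adjusted p = 0.0193), while LPS stood at 1.09 (adjusted p = 0.449). The COMB call was lost without CTL pool 1, CTL pool 3, COMB pool 2 or COMB pool 3 (adjusted p up to 0.0846). COMB pool 1 lay just below the lowest LPS pool and the other COMB pools lay above the highest, and COMB minus LPS was 1.17 (adjusted p = 0.222), or 1.83 (adjusted p = 0.0381) with COMB pool 1 left out. Adar, the RNA-editing deaminase, was higher in COMB by 0.43 (adjusted p = 0.0464), and its 2 other probe sets, at 0.24 (adjusted p = 0.304) and -0.08 (adjusted p = 0.774), were not called. Its call was lost without the same 4 pools as that of Zbp1 (adjusted p up to 0.162).

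**Figure D3:**
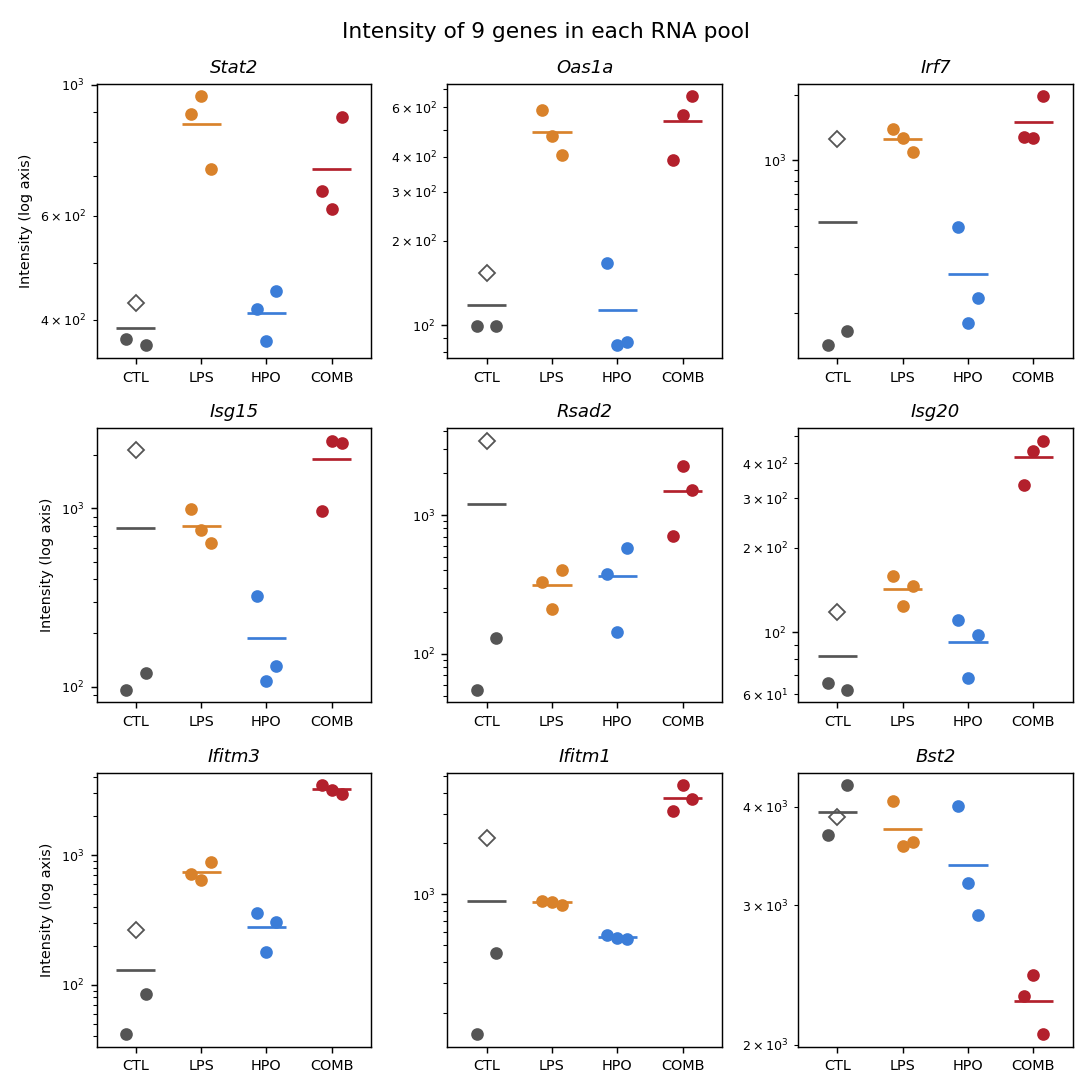
Intensity of 9 interferon-stimulated genes in each RNA pool (points, log axis, a scale of its own for each gene) by group, with the group mean as a line. The open diamond is CTL pool 2 (rats 5, 6 and 7). Stat2 and Oas1a are raised in both LPS and COMB, Isg20 and Ifitm3 are higher in every COMB pool than in any other, Rsad2 and Isg15 are high in CTL pool 2, and Bst2 is lowest in COMB.

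Among the 36 genes in COMB against CTL, the membrane factors held both the largest rise and the only fall. IFITM proteins sit in endosomal and plasma membranes and hinder the fusion of viruses. Ifitm3 was at 41.4, 265 and 85.4 in CTL, 715, 639 and 889 in LPS, 359, 178 and 305 in HPO and 3478, 3192 and 2993 in COMB. Every LPS pool was above every CTL and HPO pool, and every COMB pool was above every LPS pool. The rise was 2.90 in LPS (SE 0.493, adjusted p = 0.0158), 5.02 in COMB (SE 0.493, adjusted p = 6.21e-05) and 2.12 from LPS to COMB (95% interval, 1.04 to 3.19, adjusted p = 0.0175). COMB minus HPO was 3.57 (adjusted p = 7.14e-04), and the interaction was 0.67 (95% interval, -0.85 to 2.19), so on the log2 scale the effects of LPS and hypoxia did not differ detectably from their sum. The rise in LPS was not called without CTL pool 3, LPS pool 1 or LPS pool 3 (adjusted p up to 0.0832). The rise from LPS to COMB missed the threshold without LPS pool 1 or LPS pool 2 (adjusted p up to 0.0598).

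Ifitm1 was at 149, 2142 and 448 in CTL, 921, 902 and 866 in LPS, 575, 554 and 548 in HPO and 3116, 4427 and 3660 in COMB. The LPS and HPO pools were tightly grouped, the CTL pools spanned both, and the COMB pools were above all others. It was higher in COMB than in CTL by 2.82 (SE 0.654, adjusted p = 0.0105). Against LPS it was higher by 2.04 (95% interval, 0.62 to 3.47) with an adjusted p of 0.064, which became 0.00251 when CTL pool 2 was left out of the estimate of the spread. Ifitm2, another member of the family that is not among the 39, was higher in COMB than in LPS by 0.96 (adjusted p = 0.0119). Transcripts of this family are alike in sequence, and signal from one on the probe set of another was not told apart.

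BST2, or tetherin, holds budding viruses at the cell surface. Bst2 was at 3680, 3880 and 4260 in CTL, 4065, 3565 and 3613 in LPS, 4004, 3204 and 2915 in HPO and 2306, 2451 and 2060 in COMB. All COMB pools lay below all other pools. Bst2 was lower in COMB than in CTL, at -0.79 (SE 0.125, adjusted p = 0.00109), in COMB than in LPS, at -0.72 (adjusted p = 0.00416), and in COMB than in HPO, at -0.56 (adjusted p = 0.0105), and each call was kept without any single pool of the groups compared. In LPS it was at -0.07 (95% interval, -0.34 to 0.20). Of 10 alveolar macrophage markers, 4 were lower and 1 higher in COMB against CTL, where 11% of all genes were lower, and their median was -0.28. Their part in the level of Bst2 was not tested.

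Among the enzymes that act on RNA and nucleotides, Isg20 was the gene that rose most firmly in COMB. ISG20 is an exonuclease that degrades single-stranded RNA. It was at 65.6, 118 and 62.1 in CTL, 159, 124 and 145 in LPS, 110, 68.8 and 97.9 in HPO and 336, 445 and 483 in COMB. The COMB pools were more than 2-fold above every other pool, and the LPS pools were above all CTL and HPO pools. Isg20 was higher in COMB than in CTL by 2.39 (SE 0.245, adjusted p = 7.94e-05), than in HPO by 2.19 (adjusted p = 2.4e-04) and than in LPS by 1.54 (95% interval, 1.01 to 2.08, adjusted p = 0.00271), each kept without any single pool. In LPS it was at 0.85 (adjusted p = 0.108, and 1.14 with adjusted p = 0.0239 without CTL pool 2).

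Rsad2 was at 55.1, 3435 and 131 in CTL, 332, 210 and 401 in LPS, 377, 143 and 577 in HPO and 709, 2263 and 1508 in COMB. With all pools it was not called in COMB against CTL (2.19, SE 1.15, adjusted p = 0.216). Without CTL pool 2 it was higher in COMB by 3.97 (adjusted p = 0.0015) and not called in LPS (1.82, adjusted p = 0.179), where the HPO pools overlapped with those of LPS. Cmpk2, a mitochondrial nucleotide kinase whose gene lies next to Rsad2, was called in both without that pool, with a COMB difference of 1.72 (adjusted p = 0.00158) and an LPS difference of 1.56 (adjusted p = 0.0177). With all pools, this Cmpk2 probe set passed neither test. COMB exceeded CTL by 1.00 (adjusted p = 0.167), and the LPS excess was 0.85 (adjusted p = 0.458). A second probe set of Cmpk2, with an intensity mean of 100, was likewise called in neither with all pools (0.61 and 0.78).

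The calls of both IFIT genes and of Isg15 changed with CTL pool 2. IFIT3 is the partner that holds IFIT proteins on foreign RNA ends. Ifit3 was at 47.2, 2432 and 52.1 in CTL, 501, 434 and 244 in LPS, 98.1, 40.0 and 88.1 in HPO and 388, 1784 and 1124 in COMB. The other CTL pools and all HPO pools lay below every LPS and COMB pool. It was not called in COMB (2.32, SE 1.18, adjusted p = 0.201) or LPS (1.03, adjusted p = 0.778) with all pools, and without CTL pool 2 it was higher in both, by 4.19 (adjusted p = 7.48e-04) and 2.90 (adjusted p = 0.0315). Ifit2 moved from 0.70 (adjusted p = 0.522) to 1.74 (adjusted p = 0.00813) in COMB, and from 0.59 to 1.63 (adjusted p = 0.0526) in LPS.

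ISG15 is attached to proteins during the interferon response, and USP18 removes it and dampens the receptor. Isg15 was at 96.1, 2127 and 120 in CTL, 997, 757 and 642 in LPS, 324, 108 and 131 in HPO and 971, 2403 and 2334 in COMB. It was not called in COMB against CTL with all pools (2.59, adjusted p = 0.071) and was higher by 4.02 (adjusted p = 3.24e-04) without CTL pool 2, when LPS was also higher, by 2.86 (adjusted p = 0.0152). Against HPO, with no CTL pool in the comparison, Isg15 was higher in COMB by 3.40 (adjusted p = 0.0268). That call was lost without HPO pool 2, HPO pool 3, COMB pool 2 or COMB pool 3. Usp18 was higher in COMB by 1.94 (adjusted p = 0.00398), a call kept without each single pool. The ligase Herc6 was numerically highest in LPS, with means of 99.6 ± 35.2 in LPS (SD, n = 3 pools) and 57.4 ± 17.7 in COMB, and COMB minus LPS was -0.78 (adjusted p = 0.281). Herc6 was not called against CTL in LPS (1.91, adjusted p = 0.0506) or COMB (1.14, adjusted p = 0.0992). Without CTL pool 2 it was called higher in both, by 2.52 (adjusted p = 0.00454) and 1.74 (adjusted p = 0.00409). Trim25, the ligase that activates RIG-I, stayed within 642 to 932 in all pools and was called in no comparison.

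Of the transcription factors, Irf7, the amplifier of interferon alpha genes, was at 142, 1251 and 166 in CTL, 1395, 1270 and 1089 in LPS, 492, 180 and 233 in HPO and 1280, 1264 and 1969 in COMB. Apart from CTL pool 2, all CTL and HPO pools were below all LPS and COMB pools. Irf7 was higher in COMB by 2.25 (SE 0.654, adjusted p = 0.0313) and stood at 2.01 in LPS (adjusted p = 0.155), which became 3.25 (adjusted p = 2.08e-04) and 3.01 (adjusted p = 0.0026) without that pool. COMB minus LPS was 0.24 (95% interval, -1.19 to 1.67). Irf1, which interferon gamma induces, was higher in COMB by 1.44 (adjusted p = 0.0314). The COMB calls of Irf7 and Irf1 were each lost without CTL pool 1, CTL pool 3, COMB pool 2 or COMB pool 3, with adjusted p up to 0.13 for Irf7 and 0.128 for Irf1. Irf9 was higher in COMB than in HPO by 0.59 (adjusted p = 0.0156) and was not called against CTL (0.40, adjusted p = 0.0711). Irf8, a factor of macrophages and dendritic cells, was called in no comparison, and its pools lay between 308 and 587.

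Oasl, of the same family as Oas1a, was at 72.1, 524 and 67.1 in CTL, 527, 435 and 337 in LPS, 109, 59.5 and 84.4 in HPO and 699, 696 and 1052 in COMB. Every COMB pool was above every other pool. Oasl was higher in COMB than in CTL by 2.54 (SE 0.603, adjusted p = 0.0117, and up to 0.055 without CTL pool 1 or CTL pool 3) and than in HPO by 3.27 (adjusted p = 0.00383), while COMB minus LPS, at 0.91 (95% interval, -0.41 to 2.22), passed when CTL pool 2 was left out (adjusted p = 0.0319). The dynamin-like GTPases Mx1 and Mx2, which trap viral nucleocapsids, were higher in COMB by 1.91 (adjusted p = 0.0156) and 1.69 (adjusted p = 0.0218). Both were lost in COMB without 3 of the 6 pools compared (adjusted p up to 0.0952). Gbp2, Igtp and Irgm, GTPases of the defence against intracellular microbes, were all higher in COMB, by 1.12 (adjusted p = 0.0196), 1.14 (adjusted p = 0.0101) and 1.63 (adjusted p = 0.00302). Igtp and Irgm kept this call without any single pool, and Gbp2 lost it without CTL pool 1, CTL pool 3, COMB pool 2 or COMB pool 3 (adjusted p up to 0.0876). In LPS none of the 3 was called, and without CTL pool 2 Gbp2 and Igtp were.

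Ifi44, a protein of the interferon response with no settled role, was at 51.3, 88.0 and 46.4 in CTL, 162, 173 and 146 in LPS, 63.8, 48.7 and 34.4 in HPO and 72.9, 113 and 146 in COMB. The lowest LPS pool and the highest COMB pool were level, and COMB pool 1 was within the CTL range. Ifi44 rose by 1.41 in LPS (SE 0.288, adjusted p = 0.0328), a call lost without each of 5 of the 6 pools and kept without CTL pool 2. In COMB it was at 0.83 (adjusted p = 0.0652), and without CTL pool 2 it was called higher there, by 1.11 (adjusted p = 0.0195). Ifi27, a mitochondrial protein, was at 0.63 in COMB (adjusted p = 0.0631), and Ifi35 was higher in COMB than in HPO by 0.40 (adjusted p = 0.0219) and not called against CTL (0.19, adjusted p = 0.241).

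**Figure D4:**
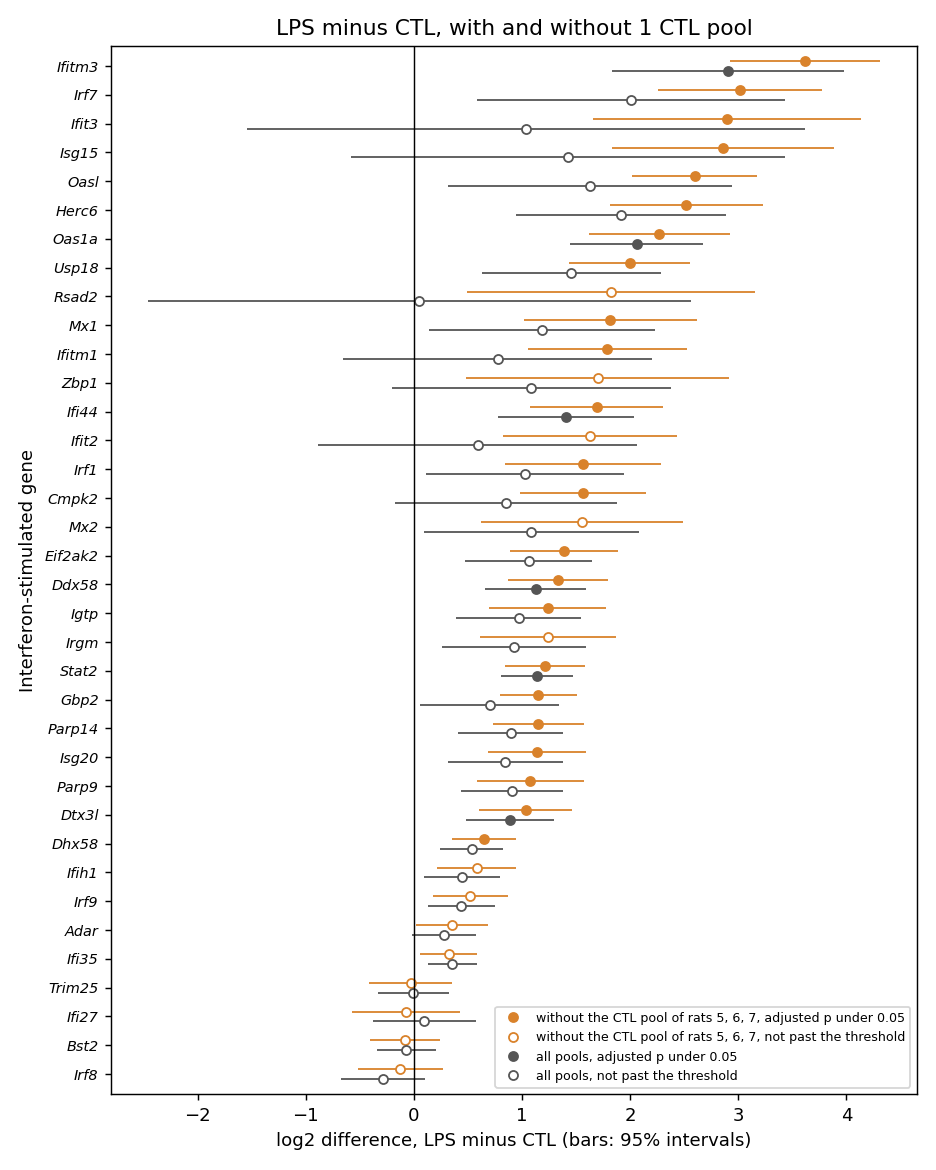
Log2 difference between LPS and CTL of each of the 36 genes with 95% intervals from limma, with all pools (grey) and without CTL pool 2, of rats 5, 6 and 7 (orange), ordered by the latter. Filled points have an adjusted p under 0.05, 6 in grey and 23 in orange. The intervals of Irf8, Ifi27, Bst2 and Trim25 include 0 either way, and the intervals of Rsad2 and Ifit3 narrow most.

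CTL pool 2 was singled out by its high values for most of these genes, so leaving it out favours more calls against CTL. The shares of all genes with the patterns below were not computed. Read by pattern without CTL pool 2, 22 genes were called higher in both LPS and COMB, and 6, namely Zbp1, Adar, Ifit2, Rsad2, Mx2 and Irgm, in COMB and not in LPS. Among the 22 were Irf1, Irf7, Stat2, Ddx58, Eif2ak2, Oas1a, Oasl, Ifit3, Cmpk2, Isg20 and Mx1. The others of the 22 were Ifitm1, Ifitm3, Isg15, Usp18, Herc6, Parp9, Dtx3l, Parp14, Gbp2, Igtp and Ifi44. Dhx58 was called in LPS and not in COMB. Of the 23 higher in LPS, 20 were called neither way in COMB against LPS with all pools, and the others were Isg20, Ifitm3 and Dhx58. The fit without CTL pool 2 called some of those 20 in COMB against LPS as well, Oasl and Ifitm1 higher and Ddx58 lower. A gene called neither way is not thereby shown to be level in LPS and COMB. With all pools, 4 genes were called in both, Stat2, Oas1a, Ifitm3 and Dtx3l, and 15 in COMB and not in LPS. A gene that passed in COMB and not in LPS is not thereby shown to differ between them, and of those 15 only Isg20 passed in COMB against LPS.

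Of the ligands and receptors of interferon, 8 were measured. In COMB against CTL 1 was higher and 1 lower (all genes, 11% and 11%), with a median of 0.05. In LPS 1 was lower (all genes, 1.54%) and none without CTL pool 2, and 2 were higher in COMB than in LPS (all genes, 8.64%), or 1 without that pool. Ifnb1, interferon beta, had mean intensities of 9.85 ± 0.471 (CTL), 11.3 ± 1.64 (LPS), 10.6 ± 0.289 (HPO) and 9.83 ± 0.249 (COMB; SD, n = 3 pools), near the 20th percentile of the arrays (10.13 to 11.25), so no change could be read at this signal. Ifng, interferon gamma, a product of T and NK cells, was at 6.32, 12.0 and 5.92 in CTL, 5.62, 6.44 and 5.98 in LPS, 8.07, 6.20 and 5.95 in HPO and 6.80, 42.8 and 94.0 in COMB. COMB pools 2 and 3 were the high ones, and CTL pool 2 was highest of the rest. All LPS values lay below the 20th percentile of the arrays, so no size is given for the difference between COMB and LPS. Its call there (adjusted p = 0.0479) was lost without CTL pool 2 (adjusted p = 0.0538). Markers of T and NK cells were higher in COMB than in LPS for 8 of 13, and COMB pool 1 had a median log2 difference of -2.37 from the other COMB pools for these markers.

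Ifnar1, the receptor chain for interferons alpha and beta, was at 185, 178 and 168 in CTL, 120, 128 and 135 in LPS, 148, 138 and 165 in HPO and 100, 111 and 106 in COMB. The COMB pools lay below the LPS pools, and these below all CTL and HPO pools. Ifnar1 was lower than CTL in LPS (-0.47, adjusted p = 0.0296) and COMB (-0.74, adjusted p = 3.16e-04), the former lost when CTL pool 2 was left out (adjusted p = 0.0666). Ifnar2 missed the threshold in COMB (-0.52, adjusted p = 0.0711) as in LPS (-0.33, adjusted p = 0.459). Of 13 signal transducers, 3 were higher and 1 lower in COMB against CTL (all genes, 11% and 11%), and 1 was lower in LPS (all genes, 1.54%), or none without CTL pool 2. Sting1, which relays the sensing of cytosolic DNA, was higher in COMB than in CTL by 1.52 (adjusted p = 0.00686) and than in LPS by 2.04 (adjusted p = 0.00285), and the kinase Jak2 was lower than CTL in LPS (-0.86, adjusted p = 0.0288, and 0.058 without CTL pool 2) and COMB (-0.64, adjusted p = 0.0207). Tlr4, the LPS receptor, was higher in COMB than in HPO by 0.58 (adjusted p = 0.00534) and was not called against CTL in COMB (0.31, adjusted p = 0.0787) or LPS (0.31, adjusted p = 0.213). Of 10 inhibitors, Cish, a SOCS-family protein, was higher in COMB by 0.89 (adjusted p = 6.54e-04), Sirpa was lower, at -0.59 (adjusted p = 0.00106), and none changed in LPS.

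A further 17 interferon-stimulated genes outside the 39 were measured, from a list kept apart. In COMB against CTL 12 were higher and none lower (all genes, 11% and 11%), with a median of 0.75, and without CTL pool 2 the count was 13 and the median 1.14. In LPS 3 were higher and none lower (all genes, 1.24% and 1.54%), with a median of 0.38. Without CTL pool 2 the count in LPS was 1, Rtp4, and the median 0.61. Rtp4, a chaperone of receptors, followed Oas1a, with mean intensities of 373 ± 58.7 (CTL), 1193 ± 174 (LPS), 393 ± 61.9 (HPO) and 1020 ± 291 (COMB; SD, n = 3 pools). It was higher in LPS by 1.67 (adjusted p = 0.00233) and in COMB by 1.42 (adjusted p = 4.78e-04), and COMB minus LPS was -0.25 (adjusted p = 0.429). The galectin Lgals9 followed Isg20, higher in COMB than in LPS by 1.42 (adjusted p = 0.00612) and not called in LPS against CTL (0.30, adjusted p = 0.692). The death ligand Tnfsf10 was also called higher in COMB than in LPS (adjusted p = 0.00527) and not in LPS against CTL (adjusted p = 0.168). Its CTL pools, at 5.59, 8.42 and 9.28, lay below the 20th percentile of the arrays (10.13 to 11.25). Its LPS pools, at 15.4, 11.1 and 14.5, lay near that percentile, so no size is given for its differences.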

How the data were processed

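RNA of BALF cells, pooled from 2 or 3 rats per array, was hybridised to 12 Affymetrix Rat Genome 230 2.0 arrays, 3 per group. The authors deposited linear intensity values for 31099 probe sets, and how they normalized them is not given in the sources used here. Array medians lay between 32.72 and 35.61 and precision is limited by the small number of arrays.

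Values were taken as log2(intensity + 1). Control probe sets (57) and those not above the 20th percentile of the array in 3 or more arrays were left out, which kept 25692 probe sets and 12853 genes. Limma 3.58.1 (R 4.3.3) fitted the 4 group means, with 8 residual and 3.94 prior degrees of freedom. P-values are two-sided and adjusted by the Benjamini-Hochberg method over all probe sets. The fit was tested on simulated data.

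The members, gene lists and markers were chosen with earlier results of these data known. Pool values are given for genes called in LPS or HPO against CTL, in the interaction, or lower in COMB, and for the 10 with the largest difference between COMB and CTL. Promoters came from RefSeq (GRCr8). Alternatives covered normalization, centring, pseudocount, filter, probe set choice, weights, the samples fitted, an unpaired t-test, a 2-fold criterion, a replicate block and each pool left out. Leaving CTL pool 2 out of COMB against LPS and COMB against HPO was added after seeing the data.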

Additional observations from a re-analysis of the deposited data

How the results depend on the processing

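Over 27 alternatives, 4530 values of single genes were recomputed, and no called value changed sign, while 202 calls were lost and 126 gained. Apart from the fits without CTL pool 2, the share of all genes called under these alternatives was not computed. A change in a count may therefore not be particular to these genes. In LPS against CTL, 10 genes were called after quantile normalization and 26 with array weights, against 6. Array weights also gave 7 in COMB against LPS, 5 in HPO against CTL and 2 in the interaction, with weights of 6.38 for HPO pool 1 and 0.226 for HPO pool 3. COMB against CTL gave 10 when only the groups compared were fitted. An unpaired t-test at an unadjusted p under 0.05 called 12 in COMB against CTL, 13 in LPS against CTL and 7 in COMB against LPS. After Benjamini-Hochberg adjustment it called 0 in each of these and 0 in COMB against HPO. The paper names a paired t-test, without its pairs, and a 2-fold criterion. These counts are therefore not those of the paper's own procedure. Adding the 2-fold criterion left 2 in COMB against LPS. With 1 pool left out at a time, counts ranged from 11 to 29 in COMB against CTL, 2 to 23 in LPS against CTL, 2 to 8 in COMB against LPS, 0 to 0 in HPO against CTL, 16 to 31 in COMB against HPO and 0 to 2 in the interaction. The 8, 31 and 23 are without CTL pool 2, the 8 and the 31 with settings chosen after seeing the data. The median in HPO against CTL ranged from -0.4207 to 0.0427, and it reversed to 0.0427 without CTL pool 2. With the replicate block, 9 genes were called in LPS against CTL, and the deviations of the pools paired by number correlated at 0.039, -0.0076 and -0.0016, so pools of the same number did not deviate together. The causes of these changes were not tested.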
